A study of Mus musculus with 9 samples.

Results

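The genes described here are 7 cell surface markers by which adipose stromal cells (ASCs) and fibro-adipogenic progenitors (FAPs) are recognised. They were chosen by name, as progenitor markers (Pdgfra, Pdgfrb, Ly6a, Cd34 and Thy1) and as markers of FAP states (Tek, which encodes Tie2, and Vcam1). All 7 are among the 26214 genes listed in the deposited table. RNA was sequenced from 3 libraries of ASCs of the subcutaneous adipose tissue (ScAT), 2 of FAPs of the quadriceps and 3 of FAPs of the injured quadriceps (injured FAPs), with 1 further library of CD31+CD45+ cells of the injured quadriceps. All cells came from mice labelled C57Bl/6 (C57BL/6J in the methods), described as males of 8 to 12 weeks, at day 1 after an injection into the quadriceps. ASC and FAP donors received NaCl, and the donors of injured FAPs and of CD31+CD45+ cells received glycerol (50%), which damages muscle fibres. The libraries of a group were drawn from pooled cells of 3 animals, so the spread between libraries of a group may be technical, and the p-values measure only that spread. Magnetic beads first removed CD31+ and CD45+ cells and then retained Sca-1+ cells, and Sca-1 is the protein of Ly6a. Ly6a is therefore the gene of the sort, and its protein was a condition for entering every ASC and FAP library.

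FAPs are the interstitial mesenchymal cells of skeletal muscle, and ASCs are their counterparts in fat. Both support tissue repair and can form adipocytes or matrix-producing cells. PDGF receptors and Sca-1 define them, whereas endothelial cells and leukocytes carry CD31 and CD45.

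Values are reads per gene divided by a size factor of the library, called normalized values below. The reads on genes were 27481573, 27349184 and 27402102 in the ASC libraries, 24052508 and 24164447 in the FAP libraries, 26968235, 26698572 and 27028114 in the injured FAP libraries and 13091077 in the CD31+CD45+ library. At this depth no marker was near the limit of counting in the ASC, FAP and injured FAP libraries. The fewest reads were 473, for Tek in injured FAP replicate 2, and 3 reads were worth a value of 2.29 to 4.71 depending on the library. The genes of the depletion were low in the sorted cells. Pecam1, which encodes CD31, had normalized values of 83.0, 46.4 and 67.8 in ASCs, 195 and 0 in FAPs, 192, 269 and 121 in injured FAPs and 45323 in the CD31+CD45+ library. Ptprc, which encodes CD45, was at 0, 1.13 and 0 in ASCs, 0 and 0 in FAPs, 11.8, 55.8 and 9.92 in injured FAPs and 797 in the CD31+CD45+ library. Injured FAP replicate 2 thus held more Ptprc than its replicates. Stromal matrix genes such as Col1a1 and Col3a1 (10 genes) summed to 5972810, 5115510 and 6181170 in ASCs, 3002550 and 3118690 in FAPs, 1173950, 1220270 and 1126900 in injured FAPs and 74450 in the CD31+CD45+ library.

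Differences were tested with limma on log2(value + 1) over 13601 genes, with Benjamini-Hochberg adjustment, and a gene was called where the adjusted p was below 0.05 and the log2 fold change exceeded 0.58 in either direction. All 7 markers passed the filter on low values, a mean of at least 10 over the 8 libraries. Some genes of the lists below passed it only through the group where they were high. The direction of those genes follows in part from the filter. In ASCs against FAPs 6 of 7 markers were called, 5 higher (Ly6a, Tek, Vcam1, Thy1 and Cd34) and 1 lower (Pdgfrb), while 47.2% of all genes tested were called, 23.4% higher and 23.8% lower. In injured FAPs against FAPs 4 of 7 were called, 2 higher (Vcam1 and Ly6a) and 2 lower (Tek and Cd34), beside 52.6% of all genes, 24.9% higher and 27.7% lower. In injured FAPs against ASCs 6 of 7 were called, 2 higher (Pdgfra and Vcam1) and 4 lower (Tek, Cd34, Ly6a and Thy1), beside 50.8% of all genes, 25% higher and 25.8% lower. The median log2 fold change of the 7 markers was 0.83, 0.04 and −0.78 in the 3 comparisons in that order, and that of all genes was 0.01, −0.05 and 0.02. With a common total, and likewise after quantile normalization, the markers called were 3 higher and 2 lower in ASCs against FAPs and 3 higher and 2 lower in injured FAPs against ASCs. Of all 13601 genes a common total called 1594 higher and 6317 lower in the former and 7377 higher and 1692 lower in the latter. Quantile normalization called 3047 higher and 3004 lower, and 3421 higher and 3401 lower. With the deposited scaling about as many genes were called as were not in each comparison. A count of called markers therefore says little, and the size and order of each marker carry the description. The comparisons share libraries and are not independent of each other. In such bulk samples fewer cells of a type and less RNA per cell cannot be told apart.

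**Figure D1:**
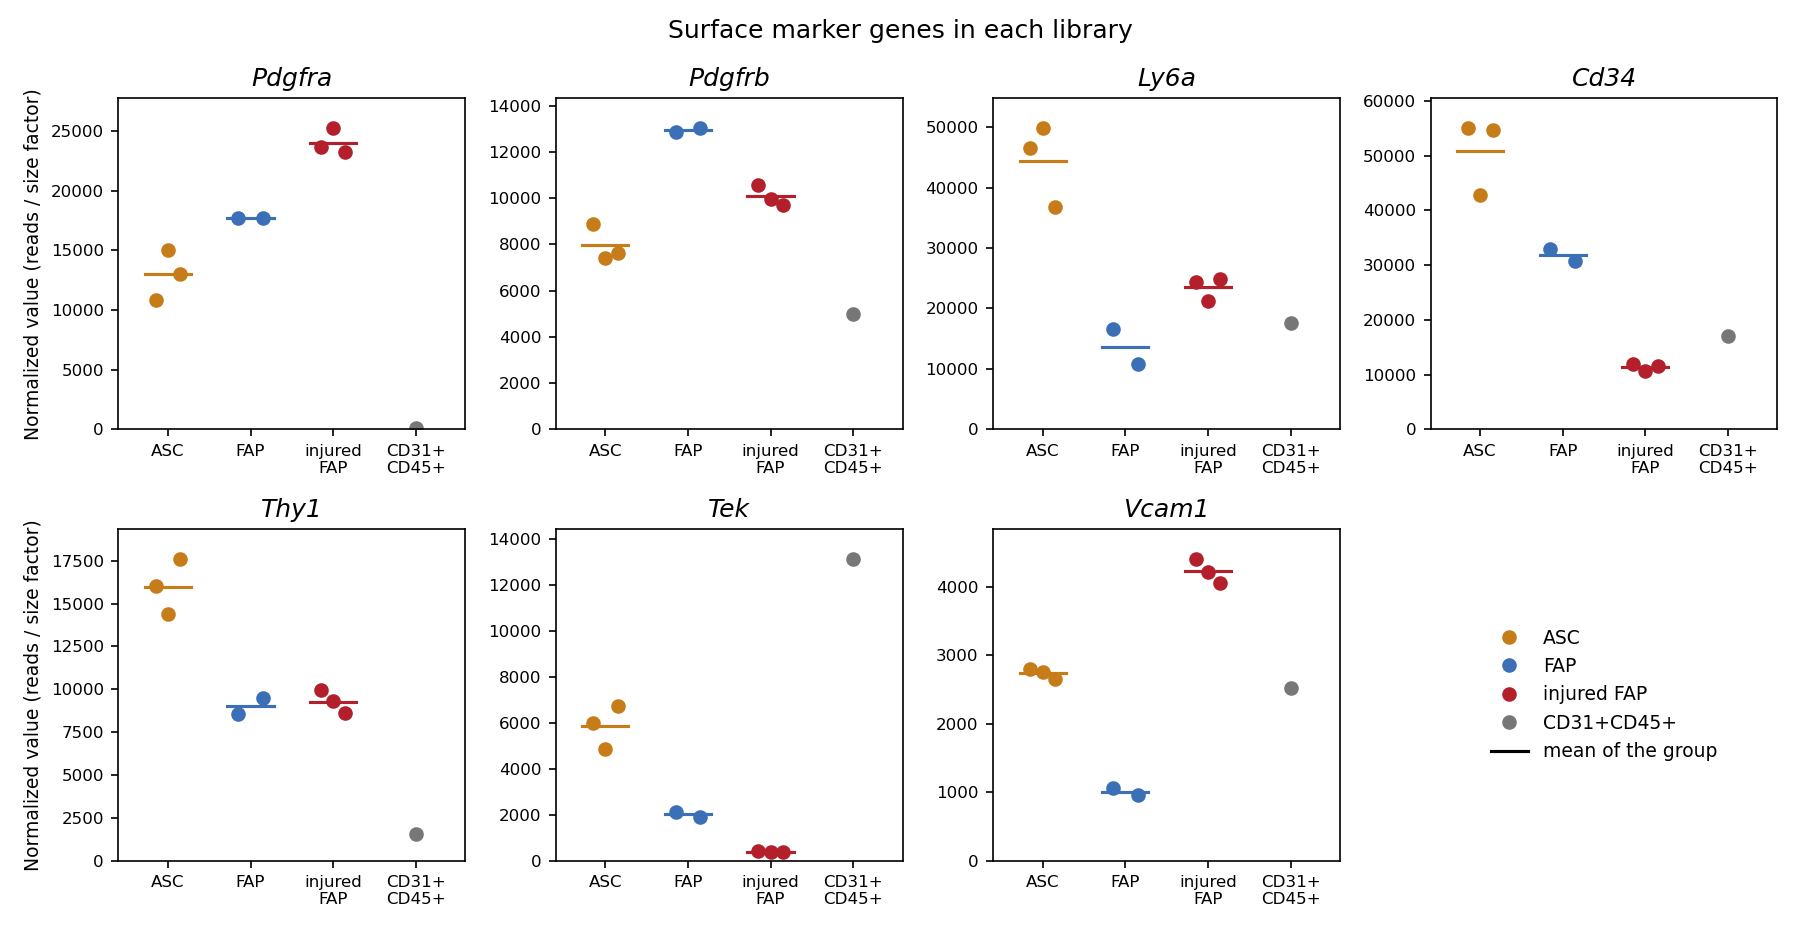
Normalized values (reads divided by the size factor, linear axis from 0) of the 7 markers; each point is 1 library and each line the mean of a group, and the CD31+CD45+ library has no replicate. Tek is at a mean of 5842 in ASCs and 376 in injured FAPs, Vcam1 is lowest in FAPs at 1004, and Pdgfra is near the axis in the CD31+CD45+ library at 119.

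The scaling of the libraries matters for several of these markers. The 100 most abundant genes held from 40.3% to 43.1% of all values of an ASC library, 35.9% and 36.3% of the FAP libraries and from 24.7% to 26.1% of an injured FAP library. Rescaling every library to a common total moved the median of all genes by −0.57 (log2) in ASCs against FAPs, by 0.13 in injured FAPs against FAPs and by 0.70 in injured FAPs against ASCs. Rescaling to a common 75th percentile moved it by −0.21, −0.10 and 0.11. A rescaling of this kind shifts all genes alike and leaves the distance of a marker from the median of all genes as it was. Marker calls that depend on the scaling are named below, and ratios between markers within a library do not depend on a rescaling by 1 factor per library.

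**Figure D2:**
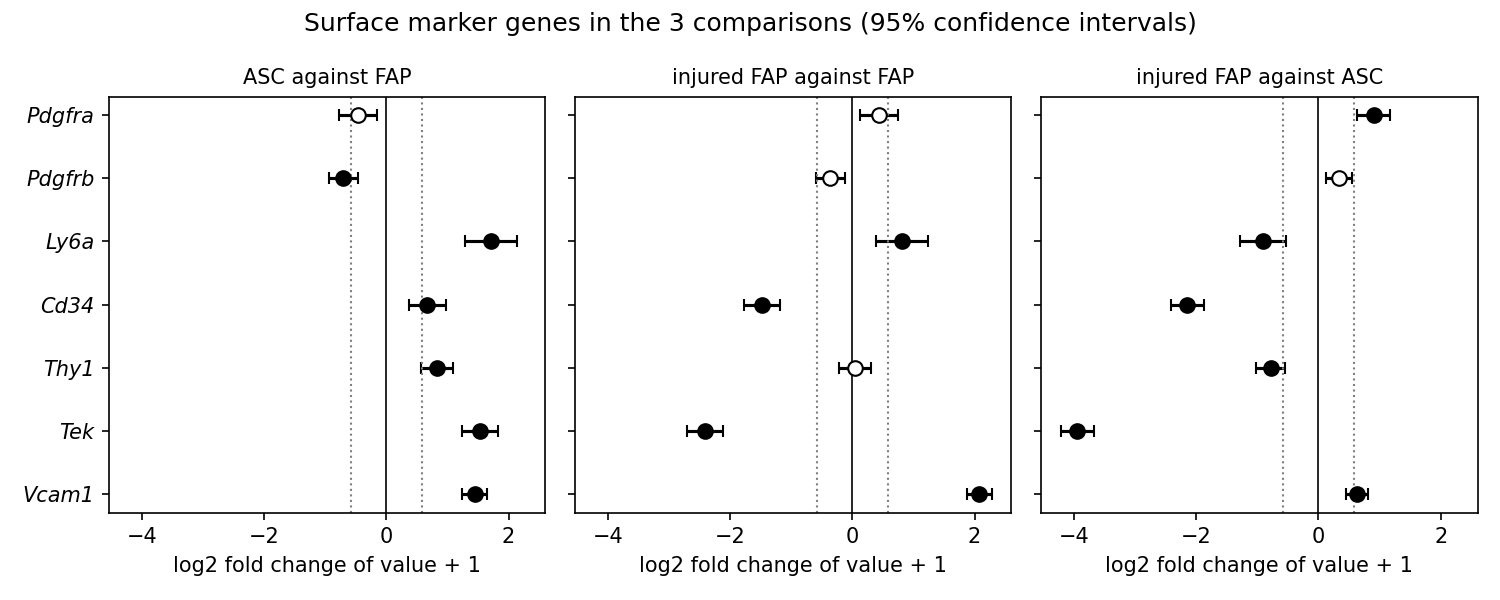
log2 fold changes of the 7 markers in the 3 comparisons with 95% confidence intervals from limma on log2(value + 1); filled points were called and open points were not, and dotted lines mark a log2 fold change of 0.58 in either direction. Tek has the most negative estimates in both comparisons with injured FAPs (−2.41 and −3.94), and Vcam1 is above 0 in all 3 (1.45, 2.07 and 0.63).

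Pdgfra encodes the receptor for PDGF-AA and PDGF-CC and is the marker most often used to define FAPs. It lies at chr5:75152292-75198215 on the plus strand (GRCm38, also named mm10). Its normalized values were 10837, 15083 and 13043 in ASCs, 17754 and 17757 in FAPs, 23649, 25268 and 23236 in injured FAPs and 119 in the CD31+CD45+ library. The groups did not overlap, and the order was injured FAPs above FAPs above ASCs. The FAP libraries nearly coincided, at a mean of 17755 ± 1.65 (SD, n = 2), while ASCs spread most, at 12988 ± 2124 (SD, n = 3). Pdgfra was higher in injured FAPs than in ASCs by a log2 fold change of 0.90 (95% interval 0.63 to 1.17; limma adjusted p = 9.69e-05). Both other differences were smaller than the threshold, −0.46 for ASCs against FAPs (limma adjusted p = 0.0141) and 0.44 for injured FAPs against FAPs (limma adjusted p = 0.0172). The first of these passed the threshold with each other scaling, at −0.67 with a common 75th percentile, −1.03 with a common total and −1.22 after quantile normalization. Injured FAPs against ASCs then gave 1.60 with a common total and 1.63 after quantile normalization. Exons of Gm42802, Gm42803 and Mir7025 overlap those of Pdgfra, and the strand setting of the counting is not given, so reads of these genes cannot be told from its own.

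Pdgfrb encodes the receptor for PDGF-BB and PDGF-DD, and pericytes carry it as well as fibroblasts. It lies at chr18:61045150-61085061 on the plus strand. The normalized values of Pdgfrb were 8888, 7395 and 7643 in ASCs, 12872 and 13030 in FAPs, 10580, 9973 and 9723 in injured FAPs and 4969 in the CD31+CD45+ library. FAPs were highest and ASCs lowest, with no overlap between groups. Pdgfrb was lower in ASCs than in FAPs by −0.70 (95% interval −0.94 to −0.47; limma adjusted p = 0.000284). In injured FAPs it differed by −0.36 from FAPs (limma adjusted p = 0.0131) and by 0.34 from ASCs (limma adjusted p = 0.00922), both inside the fold threshold. The difference from ASCs passed that threshold with a common total, at 1.04, and after quantile normalization, at 0.88. Markers of pericytes and smooth muscle (12 genes) had a summed normalized value of 5922, 3834 and 4806 in ASCs, 26850 and 23509 in FAPs, 11266, 10961 and 11407 in injured FAPs and 101775 in the CD31+CD45+ library. The sum, though not every gene of the list, had the order of Pdgfrb, FAPs above injured FAPs above ASCs. The most abundant gene of the list was Abcc9 in ASCs, Rgs5 and Acta2 in the FAP libraries and Cspg4 in injured FAPs, and Higd1b was at 0 in all ASC libraries. Of 11 tested pericyte and smooth muscle markers none was higher and 10 lower in ASCs than in FAPs (median −3.73), none higher and 10 lower in injured FAPs than in FAPs (median −1.76), and 7 higher and 2 lower in injured FAPs than in ASCs (median 1.70). Cnn1 had means below 10 in ASCs and injured FAPs and passed the filter only through FAPs, so its lower values follow in part from the filter. The part of pericytes and smooth muscle cells in the values of Pdgfrb was not tested.

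The 4 PDGF ligand genes did not share a direction. Of these, 2 were higher and 2 lower in ASCs than in FAPs (median −0.77), none higher and 2 lower in injured FAPs than in FAPs (median −0.86), and 2 higher and 2 lower in injured FAPs than in ASCs (median 0.09). Pdgfa, the ligand of Pdgfra homodimers, had normalized values of 55.3, 45.3 and 84.1 in ASCs, 597 and 588 in FAPs and 599, 577 and 593 in injured FAPs. It was low in every ASC library and at 1 level in both kinds of FAPs, with a log2 fold change of −0.01 between these (95% interval −0.50 to 0.48). Pdgfc, another ligand of Pdgfra, had the opposite order between the tissues, with 779, 814 and 965 in ASCs, 206 and 254 in FAPs and 225, 296 and 267 in injured FAPs. Pdgfd, a ligand of Pdgfrb, was at 1728, 1329 and 1569 in ASCs, 444 and 469 in FAPs and 123, 160 and 136 in injured FAPs. Pdgfd differed at each step, by 1.75 for ASCs against FAPs (limma adjusted p = 6.37e-06) and by −1.71 for injured FAPs against FAPs (limma adjusted p = 6.29e-06). Pdgfb, also a ligand of Pdgfrb, had the opposite order between the tissues. It was at 6.59, 9.06 and 3.77 in ASCs, 249 and 132 in FAPs and 20.4, 40.3 and 19.1 in injured FAPs. Its log2 fold changes were −4.67 for ASCs against FAPs (limma adjusted p = 1.55e-05) and −2.80 for injured FAPs against FAPs (limma adjusted p = 0.000403).

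Ly6a encodes Sca-1, a GPI-anchored protein of the Ly6 family, and its product was the handle of the sort. Its locus is chr15:74994877-74998031 on the minus strand. The normalized values of Ly6a were 46513, 49855 and 36777 in ASCs, 16542 and 10823 in FAPs, 24309, 21308 and 24855 in injured FAPs and 17672 in the CD31+CD45+ library. ASCs were highest and FAPs lowest, with no overlap. Although every cell was retained for Sca-1, the transcript differed between ASCs and FAPs by a log2 fold change of 1.72 (95% interval 1.29 to 2.14; limma adjusted p = 3.43e-05). After quantile normalization this was 0.87. Injured FAPs were above FAPs by 0.81 (95% interval 0.38 to 1.23; limma adjusted p = 0.00380), and all 3 libraries lay above both FAP libraries. Relative to the mean, the FAP libraries differed more from each other for Ly6a than for any other marker, at 13682 ± 4044 (SD, n = 2). Without FAP replicate 2 the log2 fold change was 0.50 (limma adjusted p = 0.0619) and no longer called, with the lone FAP library assumed to vary like the other groups. Injured FAPs were below ASCs by −0.91 (limma adjusted p = 0.000855). That difference was not called with a common total (−0.21, limma adjusted p = 0.282) or after quantile normalization (−0.03, limma adjusted p = 0.883).

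Of 13 Ly6 genes near Ly6a or of its family 8 passed the filter, and of these 3 were higher and 3 lower in ASCs than in FAPs (median 0.17), 2 higher and 3 lower in injured FAPs than in FAPs (median −0.72), and 1 higher and 3 lower in injured FAPs than in ASCs (median −0.34). With a common total the last counts were 3 higher and 1 lower. Slurp1 had means of 1.24 in ASCs and 7.77 in injured FAPs and passed the filter only through FAPs. Its lower values against FAPs follow in part from the filter. Ly6c1 had normalized values of 28737, 28930 and 23960 in ASCs, 10090 and 7632 in FAPs, 7569, 6555 and 7096 in injured FAPs and 36965 in the CD31+CD45+ library. It shared the step between ASCs and FAPs with Ly6a (log2 fold change 1.63, limma adjusted p = 6.76e-06), but injured FAPs were below both FAP libraries, by −0.31 (limma adjusted p = 0.0755, not called). Ly6e, which is expressed in many cell types, was at 29926, 31432 and 17868 in ASCs, 14183 and 13030 in FAPs and 33007, 25090 and 29111 in injured FAPs. Injured FAPs exceeded FAPs for Ly6e by 1.09 (limma adjusted p = 0.00167). No 100-base stretch of the longest Ly6a transcript occurs in another gene, whereas 15.3% of those of Ly6c1 occur in Ly6c2, so the split of reads between that pair is uncertain.

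Cd34 encodes a sialomucin of progenitors and of endothelial cells. The gene lies at chr1:194938819-194961279 on the plus strand, where exons of Gm16897 overlap it. Its normalized values were 55027, 42885 and 54644 in ASCs, 32892 and 30696 in FAPs, 11933, 10736 and 11553 in injured FAPs and 17085 in the CD31+CD45+ library. The groups were fully apart, in the order ASCs, FAPs, injured FAPs, and injured FAPs lay below the CD31+CD45+ library. Cd34 was lower in injured FAPs than in FAPs by −1.48 (95% interval −1.78 to −1.18; limma adjusted p = 7.79e-06) and lower than in ASCs by −2.15 (limma adjusted p = 2.19e-07). The second value was −1.45 with a common total and −1.38 after quantile normalization. ASCs exceeded FAPs by 0.67 (95% interval 0.37 to 0.97; limma adjusted p = 0.00175), and this step depended on the scaling. It was 0.46 with a common 75th percentile and 0.10 with a common total, neither of them called, and −0.07 after quantile normalization (limma adjusted p = 0.577). As a share of the reads Cd34 took 0.152%, 0.138% and 0.159% in ASCs, 0.144% and 0.135% in FAPs and 0.0564%, 0.0519% and 0.0560% in injured FAPs, so on that scale only injured FAPs stood apart. Of the 3 genes of the Cd34 family and ligand list, Podxl and Podxl2 passed the filter, and of these none was higher and 1 lower in ASCs than in FAPs (median −1.30), none higher and 1 lower in injured FAPs than in FAPs (median −1.09), and 1 higher and 1 lower in injured FAPs than in ASCs (median 0.21). Podxl2, the endoglycan gene, had normalized values of 883, 680 and 743 in ASCs, 686 and 625 in FAPs and 199, 168 and 208 in injured FAPs. Like Cd34 it was lower in injured FAPs than in FAPs, by −1.77 (limma adjusted p = 4.58e-06).

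Thy1 encodes CD90, a GPI-anchored adhesion protein of fibroblasts and T cells. It lies at chr9:44043384-44048579 on the plus strand. The normalized values of Thy1 were 15999, 14381 and 17583 in ASCs, 8532 and 9472 in FAPs, 9973, 9284 and 8590 in injured FAPs and 1566 in the CD31+CD45+ library. FAPs and injured FAPs overlapped, and all ASC libraries lay above them. The log2 fold change of injured FAPs against FAPs was 0.04 (95% interval −0.22 to 0.31; limma adjusted p = 0.762), so no difference was detected at day 1 after injury. ASCs exceeded FAPs by 0.83 (95% interval 0.56 to 1.09; limma adjusted p = 0.000194) and injured FAPs were below ASCs by −0.78 (limma adjusted p = 9.35e-05). Neither was called with a common total, at 0.26 and −0.08, or after quantile normalization, at 0.15 and −0.20. Of 8 Thy1 partners, which are integrin subunits, syndecan 4 and the adhesion receptor Adgre5, 7 passed the filter, and of these 4 were higher and 1 lower in ASCs than in FAPs (median 0.68), 3 higher and 3 lower in injured FAPs than in FAPs (median 1.09), and 3 higher and 2 lower in injured FAPs than in ASCs (median 0.55). With a common total, and likewise after quantile normalization, the first counts were 1 higher and 2 lower, and the last were 5 higher and 1 lower with a common total and 4 higher and 1 lower with each other scaling. Itgb2, which leukocytes also carry, was at 0 in both FAP libraries, at least 5.47-fold higher in ASCs and at least 31.5-fold higher in injured FAPs, or 15.3-fold without injured FAP replicate 2. Of 10835 genes averaging at least 100 in the libraries outside FAPs, the CD31+CD45+ library included, 79 were at 0 in both FAP libraries. Whether such zeros arose in the processing was not tested, and the bounds given for genes at 0 in FAPs rest on them. Itgav, the integrin alpha v subunit, had normalized values of 6178, 3152 and 4401 in ASCs, 2593 and 2395 in FAPs and 6732, 6466 and 7397 in injured FAPs, and was higher in injured FAPs than in FAPs by 1.46 (limma adjusted p = 0.000207). Sdc4 was at 6614, 4657 and 3443 in ASCs, 2693 and 2344 in FAPs and 5695, 5082 and 5328 in injured FAPs (1.09 against FAPs, limma adjusted p = 0.00122). Adgre5 went the other way, with 934, 1147 and 1033 in ASCs, 3693 and 4127 in FAPs, 1588, 1529 and 1435 in injured FAPs and 7720 in the CD31+CD45+ library (−1.36 in injured FAPs against FAPs, limma adjusted p = 4.00e-06). Itgb5 and Itgb3 were also lower in injured FAPs than in FAPs, by −0.97 and −0.62, and Itgb3 was not called with a common total (−0.49).

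With the deposited scaling Tek and Cd34 had the order ASCs above FAPs above injured FAPs, and Pdgfra the reverse. The promoters of these genes are shown beside those orders, and they are the ones available. The sequences are the 250 bases before the RefSeq start of each gene (GRCm38.p6, plus strand), at chr4:94739039-94739288 for Tek, chr1:194938571-194938820 for Cd34 and chr5:75152001-75152250 for Pdgfra. Of the 7 markers 3 matched an entry, and Pdgfrb, Ly6a, Thy1 and Vcam1 had none. Capitals mark the ETS core GGAA on either strand (TTCC on the strand shown), which was searched because ETS factors act on endothelial and stromal promoters.
Tek: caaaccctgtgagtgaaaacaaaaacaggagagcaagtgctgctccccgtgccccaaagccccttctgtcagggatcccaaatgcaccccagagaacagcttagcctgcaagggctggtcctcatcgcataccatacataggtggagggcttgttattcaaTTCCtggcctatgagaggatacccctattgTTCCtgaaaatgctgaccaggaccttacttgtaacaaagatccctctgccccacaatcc
Cd34: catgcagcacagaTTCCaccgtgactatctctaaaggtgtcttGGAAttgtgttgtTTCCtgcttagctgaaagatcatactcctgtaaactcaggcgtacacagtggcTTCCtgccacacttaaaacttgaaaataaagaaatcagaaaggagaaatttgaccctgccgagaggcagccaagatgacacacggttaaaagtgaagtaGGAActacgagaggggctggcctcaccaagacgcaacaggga
Pdgfra: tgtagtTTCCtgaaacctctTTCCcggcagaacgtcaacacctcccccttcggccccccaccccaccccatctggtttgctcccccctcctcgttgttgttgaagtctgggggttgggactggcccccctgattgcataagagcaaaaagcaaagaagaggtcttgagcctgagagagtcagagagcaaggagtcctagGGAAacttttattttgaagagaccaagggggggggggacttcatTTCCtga
The core occurs 2 times in the window of Tek, 5 times in that of Cd34 and 4 times in that of Pdgfra. Of 32851 promoter windows of this length 93.4% hold at least 1 such core, with a median of 3, so its presence does not set these genes apart. The AP-1 motif TGANTCA has 0 matches in each of the 3 windows, and 6.7% of all windows hold it. A match describes the letters; it is not a binding site or a cause.

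Tek encodes Tie2, the receptor of the angiopoietins, best known from endothelial cells and also used as a marker of FAPs of resting muscle. The gene lies at chr4:94739289-94874976 on the plus strand. Its normalized values were 5986, 4841 and 6700 in ASCs, 2121 and 1890 in FAPs, 395, 367 and 365 in injured FAPs and 13098 in the CD31+CD45+ library. The 3 groups were widely apart, and ASCs averaged 5842 ± 938 (SD, n = 3), FAPs 2005 ± 163 (SD, n = 2) and injured FAPs 376 ± 17.3 (SD, n = 3). Tek was higher in ASCs than in FAPs by 1.53 (95% interval 1.23 to 1.83; limma adjusted p = 7.07e-06). It was lower in injured FAPs than in FAPs by −2.41 (95% interval −2.71 to −2.11; limma adjusted p = 5.30e-07). Against ASCs the difference was −3.94 (95% interval −4.21 to −3.67; limma adjusted p = 7.38e-09), a fold of 15.4, and −3.25 with a common total. This was the most negative value of any marker in the 3 comparisons.

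Since Tie2 is an endothelial receptor, Tek was set beside 15 endothelial markers that do not include it but include Tie1. Their summed normalized value was 1424, 1100 and 1080 in ASCs, 5627 and 3549 in FAPs, 2082, 2274 and 1706 in injured FAPs and 400860 in the CD31+CD45+ library. Among the sorted libraries the sums were lowest in ASCs and highest in FAPs. As a percentage of the CD31+CD45+ library the endothelial sum was 0.355%, 0.274% and 0.269% in ASCs, 1.40% and 0.885% in FAPs and 0.519%, 0.567% and 0.426% in injured FAPs. Tek stood at 45.7%, 37.0% and 51.2% in ASCs, 16.2% and 14.4% in FAPs and 3.02%, 2.80% and 2.78% in injured FAPs on the same scale. The most abundant endothelial marker was Plvap in ASCs, Cdh5 and Flt1 in the FAP libraries and Cdh5 in injured FAPs. Vwf, Emcn, Cldn5, Plvap and Icam2 were at 0 in both FAP libraries, Pecam1 was at 0 in FAP replicate 2, and none was at 0 elsewhere. Of 13 tested endothelial markers 3 were higher and 9 lower in ASCs than in FAPs (median −3.34), 3 higher and 7 lower in injured FAPs than in FAPs (median −1.28), and 9 higher and 1 lower in injured FAPs than in ASCs (median 2.29). The 3 higher genes in each comparison with FAPs were Emcn, Plvap and Cldn5, all at 0 in both FAP libraries. Plvap was at least 260-fold higher in ASCs than in FAPs and at least 117-fold higher in injured FAPs, if its zeros in FAPs are true absences. The medians against FAPs were the same (−3.34 and −1.28) with Emcn, Plvap and Cldn5 in FAPs set to the level of 3 reads. These genes stayed above both medians at that level, so the medians could not move and say nothing about the zeros. The part of endothelial cells in the values of Tek was not tested.

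**Figure D3:**
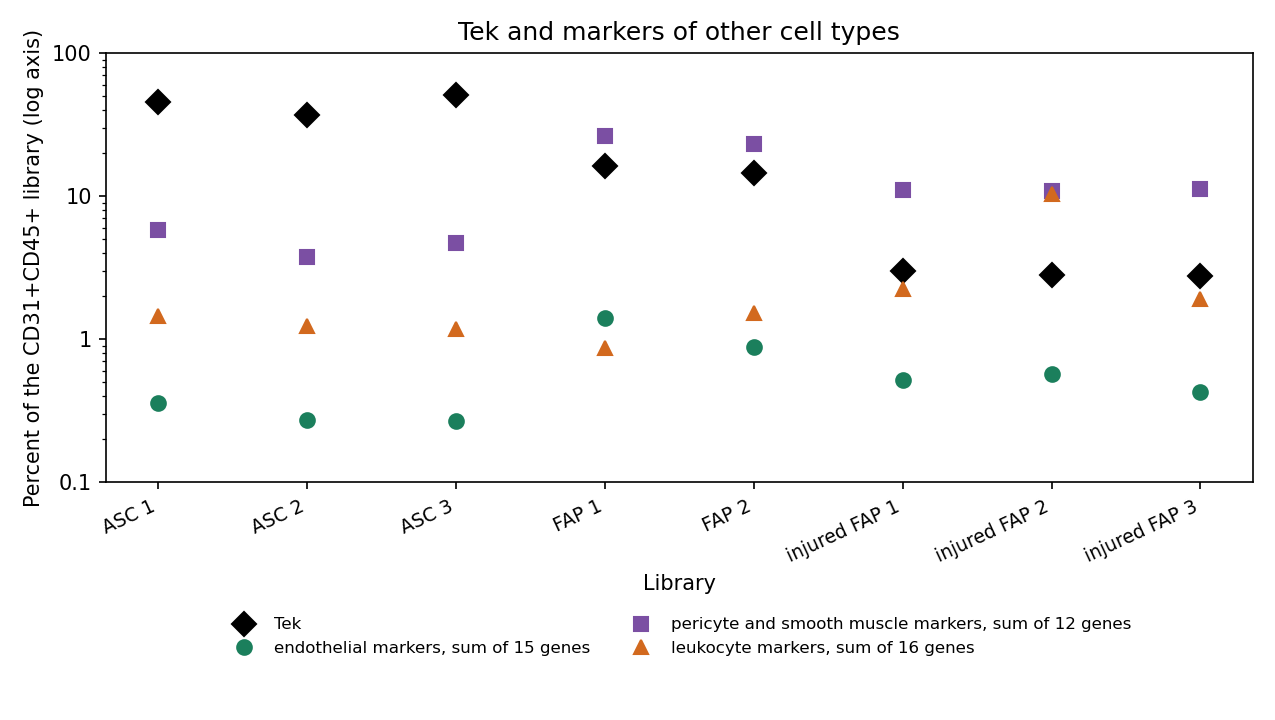
Tek and the summed markers of endothelial cells (15 genes), of pericytes and smooth muscle (12 genes) and of leukocytes (16 genes) in each of the 8 sorted libraries, as a percentage of the same quantity in the CD31+CD45+ library (log axis). Tek stands at 37.0% to 51.2% in ASCs, where the endothelial sum is at 0.269% to 0.355%, and the leukocyte sum is at 10.3% in injured FAP replicate 2.

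Among 6 genes of the angiopoietin and Tie system none was higher and 2 lower in ASCs than in FAPs (median 0.13), none higher and 4 lower in injured FAPs than in FAPs (median −1.50), and 2 higher and 4 lower in injured FAPs than in ASCs (median −1.30). The first counts were 1 higher and 1 lower after quantile normalization and none higher and 3 lower with a common total, and the second none higher and 5 lower after quantile normalization or with a common 75th percentile. The last counts were 2 higher and 3 lower with a common total and after quantile normalization. Angpt1, the activating ligand of Tie2, had normalized values of 906, 1022 and 1103 in ASCs, 733 and 744 in FAPs and 319, 336 and 362 in injured FAPs. The log2 fold change of Angpt1 in injured FAPs against FAPs was −1.13 (limma adjusted p = 2.01e-05). Angpt2 was at 341, 282 and 192 in ASCs, 215 and 185 in FAPs and 61.2, 59.7 and 42.7 in injured FAPs (−1.87, limma adjusted p = 0.000122). Angpt4 was at 1000, 687 and 1279 in ASCs, 870 and 1287 in FAPs and 182, 205 and 191 in injured FAPs (−2.45, limma adjusted p = 1.19e-05). Among the 8 sorted libraries all 3 were lowest in injured FAPs, as Tek was, while the CD31+CD45+ library held 34.5 of Angpt1, 1089 of Angpt2 and 17.3 of Angpt4. Tie1, the sister receptor of Tie2, had normalized values of 11.9, 35.1 and 11.3 in ASCs, 658 and 360 in FAPs, 54.9, 53.5 and 35.8 in injured FAPs and 27972 in the CD31+CD45+ library. It was lower in injured FAPs than in FAPs, as Tek was, by −3.34 (limma adjusted p = 0.000131), but also lower in ASCs than in FAPs, by −4.77 (limma adjusted p = 1.40e-05). The ratio of Tek to Tie1 was 505, 138 and 593 in ASCs, 3.22 and 5.25 in FAPs, 7.20, 6.86 and 10.2 in injured FAPs and 0.468 in the CD31+CD45+ library. The ratio was highest in ASCs, where Tie1 had as few as 9 reads.

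Vcam1 encodes an immunoglobulin-family adhesion receptor for integrins of leukocytes, and it is induced by inflammatory signals in endothelial and stromal cells. The gene lies at chr3:116109949-116129688 on the minus strand, where exons of Gm43109 overlap it. Its normalized values were 2795, 2761 and 2658 in ASCs, 1055 and 953 in FAPs, 4403, 4223 and 4060 in injured FAPs and 2517 in the CD31+CD45+ library. FAPs were lowest, injured FAPs highest, and the libraries of each group lay close together. Vcam1 was higher in injured FAPs than in FAPs by 2.07 (95% interval 1.87 to 2.28; limma adjusted p = 2.38e-07), a fold of 4.21. ASCs exceeded FAPs by 1.45 (95% interval 1.24 to 1.65; limma adjusted p = 8.65e-07). Injured FAPs exceeded ASCs by 0.63 (95% interval 0.44 to 0.81; limma adjusted p = 7.32e-05), and by 1.33 with a common total. Tek and Vcam1 hence moved in opposite directions after injury but in the same direction between ASCs and FAPs.

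Leukocytes and satellite cells can also carry Vcam1. Leukocyte markers (16 genes) summed to 541, 458 and 436 in ASCs, 325 and 571 in FAPs, 836, 3854 and 712 in injured FAPs and 37247 in the CD31+CD45+ library. Injured FAP replicate 2 stood apart, with Lyz2 as its most abundant marker, while Cd68 led in the other injured FAP libraries and in both FAP libraries. In the FAP libraries 11 of the 16 genes were at 0, among them Ptprc, Cd74 and Lyz2, and Cd3e was at 0 in all 8 sorted libraries. The value of Vcam1 in injured FAP replicate 2 lay between those of its replicates, and no marker call changed without that library. Of 12 tested leukocyte markers 5 were higher and 1 lower in ASCs than in FAPs (median 1.59), 9 higher and none lower in injured FAPs than in FAPs (median 5.08), and 9 higher and 2 lower in injured FAPs than in ASCs (median 3.10). The last counts were 9 higher and none lower with a common 75th percentile and 10 higher and none lower with a common total. The 5 genes higher in ASCs than in FAPs were at 0 in both FAP libraries, as were 8 of the 9 higher in injured FAPs than in FAPs. These counts thus rest on those zeros, whose origin was not tested. Adgre1, Tyrobp, Coro1a, Itgam and Laptm5 had means below 10 in ASCs and in FAPs and passed the filter only through injured FAPs. Their higher values there follow in part from the filter. With genes at 0 in both FAP libraries set to the level of 3 reads the medians were 4.06 in injured FAPs and 1.55 in ASCs, the latter without Tyrobp, Coro1a and Adgre1, whose ASC means were below the level of 3 reads in ASCs. If its zeros in FAPs are true absences, Lyz2 was at least 115-fold higher in injured FAPs than in FAPs, and 44.2-fold without injured FAP replicate 2. Without that library the bounds of Tyrobp and Coro1a fell from 16.6-fold and 16.7-fold to 6.53-fold and 6.42-fold. These bounds lay nearest to the median of 4.06, which thus rested in part on injured FAP replicate 2. Satellite cell markers (9 genes) summed to 6944, 4952 and 3894 in ASCs, 3908 and 3671 in FAPs, 6450, 5709 and 6064 in injured FAPs and 4135 in the CD31+CD45+ library. Sdc4, which is also among the Thy1 partners, made up most of the sum in every ASC, FAP and injured FAP library. Its means were 4905 in ASCs, 2518 in FAPs and 5368 in injured FAPs, so the sum mainly followed Sdc4. Of 6 tested satellite cell markers 1 was higher and 4 lower in ASCs than in FAPs (median −1.78), 1 higher and 2 lower in injured FAPs than in FAPs (median −0.58), and 3 higher and none lower in injured FAPs than in ASCs (median 1.61). With a common total the first and last counts were none higher and 4 lower, and 5 higher and none lower. Pax7, the defining gene of satellite cells, was at 0, 0 and 0 in ASCs, 31.4 and 65.9 in FAPs and 11.8, 10.8 and 5.34 in injured FAPs. With Pax7 in ASCs at the level of 3 reads the last median was 0.89, and Pax7 was at least 13.1-fold lower in ASCs than in FAPs. Pax7 passed the filter only through FAPs, so its lower values in ASCs and injured FAPs follow in part from the filter. The part of leukocytes and satellite cells in the values of Vcam1 was not tested.

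Of the 4 integrin genes whose products bind Vcam1, 2 were higher and none lower in ASCs than in FAPs (median 1.00), 2 higher and 2 lower in injured FAPs than in FAPs (median 0.01), and 1 higher and 2 lower in injured FAPs than in ASCs (median −0.25). With a common total the counts were 1 higher and none lower, 2 higher and 1 lower, and 2 higher and 1 lower. After quantile normalization they were 1 higher and none lower, 2 higher and 1 lower, and 2 higher and 2 lower. A common 75th percentile gave 1 higher and 2 lower in injured FAPs against FAPs. The first median was 0.29 without Itga4, which counts among the higher genes there although its ASC mean was below the level of 3 reads in ASCs. Itga4 was at 0 in both FAP libraries and at least 11.0-fold higher in injured FAPs, the only group through which it passed the filter. Itgb7 was at 1746, 1073 and 1361 in ASCs, 56.1 and 118 in FAPs and 45.5, 43.4 and 41.2 in injured FAPs, a log2 fold change of 4.05 for ASCs against FAPs (limma adjusted p = 1.88e-06). Itgb1, the common beta 1 subunit, was at 11842, 11088 and 11546 in ASCs, 10353 and 9221 in FAPs and 14553, 14369 and 16267 in injured FAPs. It was 0.62 above FAPs in injured FAPs (limma adjusted p = 0.000473), and 0.53 with a common 75th percentile, which was not called.

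Ratios between the markers of a library do not depend on the factor by which a library is scaled, though quantile normalization can change them. The ratio of Tek to Pdgfra was 0.552, 0.321 and 0.514 in ASCs, 0.119 and 0.106 in FAPs and 0.0167, 0.0145 and 0.0157 in injured FAPs. The groups did not overlap. The ratio of Vcam1 to Pdgfra was 0.258, 0.183 and 0.204 in ASCs, 0.0595 and 0.0537 in FAPs and 0.186, 0.167 and 0.175 in injured FAPs. Injured FAPs overlapped with ASCs, and both stood above FAPs. The ratio of Vcam1 to Tek was 0.467, 0.570 and 0.397 in ASCs, 0.498 and 0.504 in FAPs and 11.1, 11.5 and 11.1 in injured FAPs. ASCs and FAPs overlapped in this ratio, and every injured FAP library lay far above them.

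**Figure D4:**
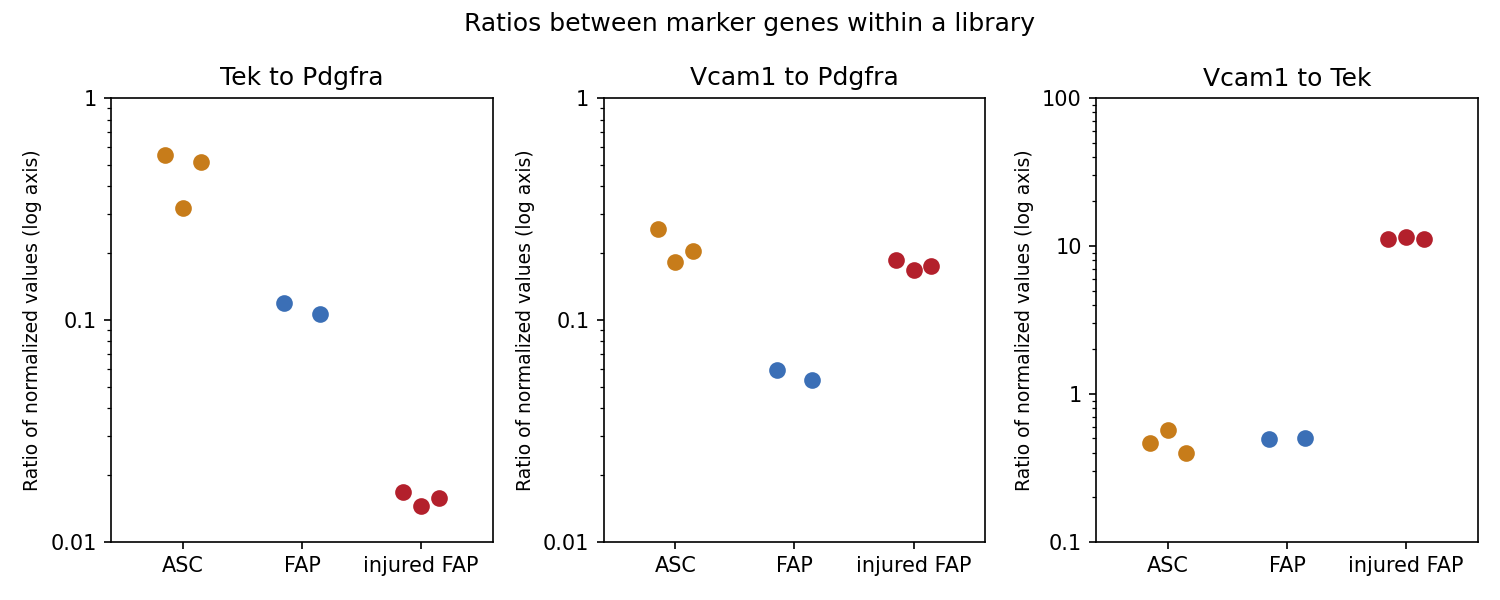
Ratios of normalized values of Tek to Pdgfra, Vcam1 to Pdgfra and Vcam1 to Tek (log axes); each point is 1 library. Tek to Pdgfra separates all 3 groups, and Vcam1 to Tek is 0.397 to 0.570 in ASCs and FAPs and 11.1 to 11.5 in injured FAPs.

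The ratio of Cd34 to Pdgfra was 5.08, 2.84 and 4.19 in ASCs, 1.85 and 1.73 in FAPs and 0.505, 0.425 and 0.497 in injured FAPs. It separated the groups as Tek to Pdgfra did, although Cd34 alone did not separate ASCs from FAPs with every scaling. The ratio of Ly6a to Pdgfra was 4.29, 3.31 and 2.82 in ASCs, 0.932 and 0.610 in FAPs and 1.03, 0.843 and 1.07 in injured FAPs, so FAPs and injured FAPs overlapped. The ratio of Thy1 to Pdgfra was 1.48, 0.953 and 1.35 in ASCs, 0.481 and 0.533 in FAPs and 0.422, 0.367 and 0.370 in injured FAPs. Here ASCs were highest, and injured FAPs lay below both FAP libraries. The ratio of Pdgfrb to Pdgfra was 0.820, 0.490 and 0.586 in ASCs, 0.725 and 0.734 in FAPs and 0.447, 0.395 and 0.418 in injured FAPs, and FAPs lay within the range of ASCs. Cd34 to Tek was 9.19, 8.86 and 8.16 in ASCs, 15.5 and 16.2 in FAPs and 30.2, 29.3 and 31.7 in injured FAPs, so Tek was reduced more than Cd34 after injury.

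Between genes, levels were compared as RPKM (reads per kilobase of the longest annotated transcript, scaled to the reads on genes), as mean ± SD of the libraries of a group (n = 3 for ASCs and injured FAPs, n = 2 for FAPs). On this scale Ly6a was the most abundant marker in all 8 sorted libraries, at 1383 ± 285 in ASCs, 628 ± 183 in FAPs and 1181 ± 94.0 in injured FAPs. Cd34 followed per length in ASCs (489 ± 33.9) and FAPs (455 ± 20.3), with Thy1 below it at 272 ± 20.4 and 228 ± 17.8. In injured FAPs Thy1 (257 ± 15.8) came before Cd34 (179 ± 8.19) and Pdgfra (169 ± 8.37), and the libraries of these last genes overlapped. In ASCs the per-length levels of Pdgfra (56.8 ± 13.8), Pdgfrb (43.4 ± 2.21) and Tek (37.0 ± 4.32) lay close together. In FAPs Pdgfra (114 ± 0.497) and Pdgfrb (105 ± 1.35) were near each other and apart from Tek (18.9 ± 1.45) and Vcam1 (10.8 ± 0.731). Tek was the lowest marker per length in injured FAPs, at 3.87 ± 0.123, while Vcam1 was at 49.7 ± 1.38. In ASCs Vcam1 was the lowest, at 19.9 ± 1.68. In the CD31+CD45+ library the per-length order was Ly6a (901), Cd34 (271), Tek (137), Pdgfrb (44.6), Thy1 (43.9), Vcam1 (30.0) and Pdgfra (0.850).

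The genes most like each marker were found among 10593 genes with a mean of at least 100, by the root mean square difference between the log2 values of both genes over the 8 libraries, each centred on its mean. Tek was nearest to Dpep1 (0.09), Sema3b (0.16) and Lamb3 (0.20). Dpep1 had normalized means of 30738 in ASCs, 11623 in FAPs and 2017 in injured FAPs, and 54.9 in the CD31+CD45+ library, so the likeness to Tek did not hold for that library. Cd34 was nearest to Itm2b (0.07), Fcgrt (0.08) and Akap12 (0.09). Vcam1 was nearest to Rps27a (0.11), Slc35g1 (0.11) and Tcp1 (0.12). For Pdgfra they were Chmp6 (0.05), Gmpr2 (0.06) and Sephs1 (0.06), and for Pdgfrb Galnt17 (0.06), Slc48a1 (0.07) and Mras (0.07). Thy1 was nearest to Trio (0.04), Smurf1 (0.07) and Selenon (0.07). Ly6a had the most distant neighbours of the progenitor markers, Mmp19 (0.13), Ifih1 (0.15) and Rnh1 (0.16). Among the markers themselves the nearest pair was Pdgfra and Pdgfrb (0.38) and the farthest Tek and Vcam1, followed by Pdgfra and Tek (2.12). These distances describe 8 libraries in 3 groups, and many genes with the same order of groups lie close together.

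Of 18 other surface markers of stromal cells 11 were higher and 5 lower in ASCs than in FAPs (median 1.21), 7 higher and 9 lower in injured FAPs than in FAPs (median −0.61), and 3 higher and 8 lower in injured FAPs than in ASCs (median −0.17). With a common total 9 were higher and 7 lower in the last comparison. The first median was 1.19 with Bst1, at 0 in both FAP libraries, set to the level of 3 reads. Bst1 was at least 7.20-fold higher in injured FAPs than in FAPs (4.79-fold without injured FAP replicate 2). With a mean of 7.01 in ASCs, it passed the filter only through injured FAPs. Its higher values there follow in part from the filter. Dpp4, a marker of fibroblast progenitors of fat, had normalized values of 16547, 14086 and 15958 in ASCs, 1750 and 1761 in FAPs and 967, 749 and 766 in injured FAPs, with a log2 fold change of 3.14 for ASCs against FAPs (limma adjusted p = 7.02e-08). Cd55, a complement regulator, was at 10427, 7518 and 10762 in ASCs, 2681 and 2663 in FAPs and 778, 638 and 757 in injured FAPs. Dpp4 and Cd55 had the order ASCs, FAPs, injured FAPs, as Tek and Cd34 did. Cd44, the hyaluronan receptor, was at 19683, 9938 and 10742 in ASCs, 3500 and 3418 in FAPs and 18562, 17015 and 20073 in injured FAPs, 2.42 above FAPs in injured FAPs (limma adjusted p = 1.31e-05). Pdpn was likewise lowest in FAPs, as Vcam1 was, with 23063, 13771 and 13192 in ASCs, 2858 and 2697 in FAPs and 19613, 19007 and 18419 in injured FAPs. Eng, a TGF-beta co-receptor, was at 4248, 4008 and 3484 in ASCs, 11046 and 11409 in FAPs and 9634, 9739 and 8117 in injured FAPs, so it had the order of Pdgfrb.

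Markers of further cell types were counted in the same way. Of 7 tendon cell markers none was higher and 7 lower in ASCs than in FAPs (median −7.16), none higher and 4 lower in injured FAPs than in FAPs (median −1.07), and 7 higher and none lower in injured FAPs than in ASCs (median 5.63). Of 8 tested skeletal muscle fibre genes none was higher and 8 lower in ASCs than in FAPs (median −3.63), none higher and 5 lower in injured FAPs than in FAPs (median −1.60), and 6 higher and none lower in injured FAPs than in ASCs (median 2.30). Myh1, with means of 1.55 in ASCs and 7.26 in injured FAPs, passed the filter only through FAPs, so its lower values against FAPs follow in part from the filter. Of 3 tested adipocyte genes 3 were higher and none lower in ASCs than in FAPs (median 3.05), none higher and 1 lower in injured FAPs than in FAPs (median −1.37), and none higher and 3 lower in injured FAPs than in ASCs (median −4.05). These 3 genes had means below 10 in both kinds of FAPs and passed the filter only through ASCs. Their direction in the comparisons with ASCs was thus set by the filter. Of 10 stromal matrix genes 7 were higher and none lower in ASCs than in FAPs (median 0.83), none higher and 8 lower in injured FAPs than in FAPs (median −1.08), and none higher and 10 lower in injured FAPs than in ASCs (median −2.10). After quantile normalization these counts were 3 higher and none lower, 1 higher and 5 lower, and none higher and 5 lower, and with a common total 3 higher and none lower, 1 higher and 6 lower, and none higher and 7 lower. Tendon cell markers summed to 1047, 1044 and 1090 in ASCs, 150541 and 158283 in FAPs, 155447, 156669 and 149870 in injured FAPs and 9258 in the CD31+CD45+ library, with Thbs4 as the most abundant gene in each. Thbs4 made up most of the sums in FAPs and injured FAPs, at means of 112457 and 143053. Chad was at 20331 and 3188, Cilp2 at 8653 and 1441 and Tnmd at 4167 and 1583. After quantile normalization 1 gene, Thbs4, was higher (0.72) and 4 lower in injured FAPs than in FAPs. Chad was at 0 in ASC replicate 1 and no tendon cell marker was at 0 elsewhere. Muscle fibre genes summed to 162, 133 and 167 in ASCs, 889 and 1041 in FAPs, 314, 333 and 261 in injured FAPs and 3978 in the CD31+CD45+ library, and adipocyte genes to 217, 148 and 144 in ASCs, 20.9 and 25.4 in FAPs, 7.85, 14.7 and 1.53 in injured FAPs and 37.7 in the CD31+CD45+ library. Tnnt3 was the most abundant muscle fibre gene in ASCs, and Acta1 or Tnnt3 in FAPs and injured FAPs. Retn was at 0 in all FAP and injured FAP libraries, as was Lep in all of these but FAP replicate 1. The part of these cells in the levels of the surface markers was not tested.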

How the data were processed

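The signal values are normalized read counts as deposited by the authors, who describe FastQC, HISAT2 against mm10, featureCounts of Subread and DESeq2. Multiplying by 1 size factor per library made 100% of the values whole within 0.1 read. Genes with a mean of at least 10 over 8 libraries (13601) were fitted with limma (3.58.1, R 4.3.3) on log2(value + 1), with 3 groups, 5 residual degrees of freedom and Benjamini-Hochberg adjustment. On whole reads edgeR (4.0.16) called 6450, 7303 and 7000 genes in the order of comparisons given above, and DESeq2 (1.42.0) called 6412, 7227 and 6865. Tables were made with Python (3.11.15), pandas (2.3.3) and numpy (2.4.6), and the code was first run on simulated data. Coordinates and lengths are from GENCODE M21, which matched 24918 genes, and promoters from RefSeq GRCm38.p6. Markers and lists were chosen with earlier results of these data known, and 1 list of cell markers is not reported here. Partner genes given with values are a selection, made with the values known, of those called in some comparison with a mean of at least 100, and markers of other cells are named where they lead a list or were at 0. Pdgfb, with a mean below 100, is given as well. The alternatives were other pseudocounts, filters and scalings, fits of a pair of groups, a replicate block, edgeR, DESeq2 and each library left out.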

Additional observations from a re-analysis of the deposited data

How the results depend on the processing

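Of the marker fold changes under all alternatives 401 kept direction and side of the threshold, 5 reversed, 5 became stronger and 9 weaker. The markers called were 5 to 6, 3 to 4 and 5 to 6 in the 3 comparisons. Their split into higher and lower, 5 and 1, 2 and 2, 2 and 4, became 3 and 2 in the first and last with a common total or after quantile normalization. With the deposited scaling 49.6%, 47.4% and 49.3% of the called genes were higher (ASCs against FAPs, injured FAPs against FAPs, injured FAPs against ASCs). A common total gave 20.1% and 81.3% in the first and last, and a common 75th percentile 37.2% in the first. Cd34 in ASCs against FAPs reversed to −0.065 after quantile normalization. Thy1 in injured FAPs against FAPs was −0.043 after quantile normalization, −0.052 with a common 75th percentile, −0.032 without FAP replicate 1, −0.010 without injured FAP replicate 1 and 0.119 without FAP replicate 2; the cause was not tested. With 1 library left out 5653 to 6683, 6323 to 7358 and 6582 to 7190 genes were called, and 6, 3 to 4 and 6 markers; a lone FAP library was assumed to vary like the other groups. Deviations of libraries with the same number correlated between −0.0545 and 0.0446, so no pairing by number was seen. Libraries drawn from pooled cells may differ only technically, so these correlations cannot exclude a pairing. A replicate block gave 6287, 7046 and 6861 genes and 6, 4 and 6 markers, and changed no marker call. Depth limits values near 3 reads (2.29 to 4.71).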

Other observations

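Genes at 0 in both libraries of a pair, though well expressed in the other groups, were counted after the values were seen. Of 10835 genes whose libraries outside the group averaged at least 100, 79 were at 0 in both FAP libraries. For pairs of ASC libraries these were 14, 15 and 18 of 10945 genes, and for pairs of injured FAP libraries 4, 4 and 3 of 10780. None of the 7 surface markers was among them.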
